A study of Saccharomyces cerevisiae with 10 samples.

Results

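The 10 genes described here encode enzymes of leucine, isoleucine and valine synthesis in Saccharomyces cerevisiae, together with the regulator Leu3. They are ILV1 (YER086W), ILV2 (YMR108W), ILV6 (YCL009C), ILV5 (YLR355C), ILV3 (YJR016C), BAT1 (YHR208W), LEU4 (YNL104C), LEU9 (YOR108W), LEU1 (YGL009C) and LEU3 (YLR451W), 10 of the 6600 genes measured, taken by their IDs. RNA was sequenced from budding yeast in supplemented white grape juice (5 mL per fermentation), with 2 separate fermentations for each of 5 strains. By the labels, each culture was harvested at 35% fermentation, with progress recorded as weight loss. The med15 deletion strain lacked MED15 and was harvested at 48 hours. The WY7, WY15 and WY23 strains carried integrated MED15 alleles of those names, and the LAB strain carried the laboratory allele, labelled wild type; these 4 are called the MED15 strains, and they were harvested at about 37 hours. All 5 strains were of the S288C laboratory background, and LEU2, the isopropylmalate dehydrogenase gene of leucine synthesis, had 0 reads in all 10 libraries, which allows up to 3 reads per library by counting error. The deletion therefore differed from the other strains in harvest time as well as in MED15, and these effects cannot be told apart.

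Branched-chain amino acids are made largely in mitochondria. Threonine deaminase (Ilv1) starts the isoleucine branch, acetolactate synthase (Ilv2 with its regulatory subunit Ilv6), the reductoisomerase Ilv5 and the dehydratase Ilv3 serve both isoleucine and valine, and the aminotransferase Bat1 adds the amino group at the end. Leucine branches off from the valine precursor through alpha-isopropylmalate synthase (Leu4 and Leu9), the isomerase Leu1 and the dehydrogenase Leu2. Alpha-isopropylmalate, the product of Leu4 and Leu9, switches the zinc-cluster factor Leu3 into an activator, while Gcn4 activates amino acid synthesis genes during starvation; Med15 is a subunit of the Mediator tail that activators including Gcn4 contact.

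The sequences upstream of these genes carry the letters that Leu3 and Gcn4 are known to bind, so they are shown before the expression values. In the 500 bases before the start codon, searched on both strands of the R64 genome, the Leu3 motif (CCGG, any 2 bases, CCGG) was found for 4 of 10 genes, LEU1, ILV2, ILV5 and BAT1, against 15 of all 5706 tested genes with such a window (0.263%). TGACTC (the Gcn4 motif) was found for 9 of 10 genes, all but ILV2, against 742 of the 5706 (13.0%). Stretches around these matches are printed 5′ to 3′ on the strand of the gene, with both motifs in capitals and GAGTCA marking TGACTC on the other strand; no match of one motif overlaps a match of the other. The first 4 were chosen because they hold the Leu3 motif, and the LEU4 and LEU9 stretches because those paralogs differed in expression. They lie at chrVII:478835-478894 (minus strand, LEU1), chrXIII:483591-483650 (plus strand, ILV2), chrXII:839556-839655 (minus strand, ILV5), chrVIII:517360-517419 (plus strand, BAT1), chrXIV:426838-426867 (minus strand, LEU4) and chrXV:522758-522787 (plus strand, LEU9).
LEU1: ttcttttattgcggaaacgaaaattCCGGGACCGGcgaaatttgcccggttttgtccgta
ILV2: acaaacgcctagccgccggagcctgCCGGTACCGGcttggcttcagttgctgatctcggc
ILV5: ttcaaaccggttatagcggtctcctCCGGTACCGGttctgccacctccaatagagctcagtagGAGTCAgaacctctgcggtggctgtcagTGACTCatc
BAT1: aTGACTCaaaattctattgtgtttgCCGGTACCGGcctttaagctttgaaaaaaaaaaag
LEU4: cttacgtgtaagTGACTCagttctttcaaa
LEU9: ggtcgtagtgaaTGACTCatatttttccat
The central pair of the Leu3 motif was TA upstream of ILV2, ILV5 and BAT1 and GA upstream of LEU1. The motif began 217 bases before the start codon of LEU1, 468 before that of ILV2, 377 before that of ILV5 and 147 before that of BAT1. ILV5 held 3 Gcn4 motifs and LEU3 held 2, while the other 7 genes with the motif held 1 each. A match is a description of the letters only.

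The 10 libraries held 22669536 to 29320432 reads counted on genes, and no gene described here had fewer than 3315 reads in any of them. MED15 was at 12.1 and 11.9 normalized counts in the deletion libraries, against 8238 to 10958 in the 8 libraries of the MED15 strains. URA3, named after its values were seen, had 3971 and 4037 reads in the deletion libraries and 0 in the other 8, a further strain difference that cannot be told apart from the deletion. LAB replicate 1 and WY15 replicate 2 were below the other libraries in the summed level of low-oxygen genes other than COX5B (5880 and 4624 normalized counts, against 8535 to 19949), so the main counts are also given without them.

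As scaled by the authors, several abundant enzyme genes of the pathway had lower values in the deletion strain than in LAB, but not every gene did. Under the authors' scaling, 6 of 10 genes fell in the deletion strain relative to LAB (LEU4, LEU1, ILV2, ILV3, ILV5 and BAT1), by 1.60-fold to 2.58-fold, and 0 rose; under quantile normalization (20.1% of all tested genes called higher and 19.0% lower) 0 fell and 5 rose, and LEU1, ILV3, ILV5 and BAT1 turned to positive log2 changes. LEU9, LEU3, ILV1 and ILV6 did not pass the test against LAB. A call is an adjusted p under 0.05 from limma with Benjamini-Hochberg adjustment over 6065 genes. It was made for 17.7% of those genes in the lower direction and 18.9% in the higher direction. Among the 469 tested genes with a mean of at least 10000 normalized counts, 49.7% were called lower and 3.84% higher. The 6 genes that fell all belong to that class. The median log2 change of the 10 genes was -0.77, against 0.00 over all tested genes. In bulk RNA, less RNA per cell and fewer cells of a state that expresses a gene cannot be told apart.

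Among the enzymes shared by isoleucine and valine, ILV2, the catalytic subunit of acetolactate synthase, stood at 30824 and 28139 normalized counts in both fermentations of the deletion strain. The WY libraries had 90270.5 and 100294 (WY7), 84373 and 77822 (WY15), and 98689.9 and 101595 (WY23), and LAB had 73215 and 72529. The deletion values were below all 8 others, and the fall relative to LAB was 2.47-fold (log2 -1.31, SE 0.15, limma adjusted p = 0.00055). The share of all tested genes separated in this way was not counted, here or for the genes below. ILV6, which encodes the regulatory subunit of the same enzyme, had 17659.9 and 16688 normalized counts in the deletion libraries, against 20380.0 to 27743 in the MED15 strains, where LAB had 21107 and 20957. The ILV6 groups did not overlap either, but the difference from LAB was small (log2 -0.29, SE 0.13, adjusted p = 0.11) and only the comparisons with WY7, with WY23 and with the mean of all MED15 strains were called; DESeq2 called it relative to LAB as well (adjusted p = 0.0497), with 20.1% of all genes called lower.

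ILV5, the reductoisomerase gene, had 44628 and 38697 normalized counts in the deletion libraries, against 84453 and 67633 in LAB, and 83343 to 111057 in the WY libraries. The LAB libraries differed from each other by more than those of the deletion, and the fall was 1.82-fold (log2 -0.86, SE 0.19, adjusted p = 0.0093). ILV5 lost its call without deletion replicate 2 (log2 -0.76, adjusted p = 0.066) and without LAB replicate 1 (log2 -0.70, adjusted p = 0.053). ILV3, the dehydratase gene, was steadier between replicates. It had 51897 and 49671 normalized counts in the deletion libraries, against 103103 and 107394 in LAB and 108989 to 130078 in the WY libraries. Its fall was 2.07-fold (log2 -1.05, SE 0.16, adjusted p = 0.0018).

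BAT1, the mitochondrial aminotransferase gene, had 45335 and 48334 normalized counts in the deletion libraries, against 81980.1 and 68272 in LAB and 82186 to 111863 in the WY libraries. No library of the MED15 strains reached down to the deletion values. The fall was 1.60-fold (log2 -0.68, SE 0.19, adjusted p = 0.027), the smallest of the 6, and its call was lost without either deletion replicate or without LAB replicate 1 (adjusted p = 0.084 to 0.12). ILV1, the threonine deaminase gene, lay above LAB without passing the test. It had 18336 and 16453 normalized counts in the deletion libraries and 14132 and 14704 in LAB, with 13362 to 18003 in the WY libraries, overlapping the deletion (log2 0.27 relative to LAB, 95% interval -0.03 to 0.57, adjusted p = 0.14).

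In the leucine branch, LEU4, the major alpha-isopropylmalate synthase gene, stood at 42090.3 and 35400.0 normalized counts in both fermentations of the deletion strain. The WY libraries had 119772 and 123409 (WY7), 114716 and 117539 (WY15), and 126915 and 133012 (WY23), and LAB had 105416 and 93881. The groups were far apart, and the 2.58-fold fall relative to LAB (log2 -1.37, SE 0.17, adjusted p = 0.00078) had the largest size among the 10 genes. LEU1, the isomerase gene and the most abundant of the 10, had 69894 and 69108 normalized counts in the deletion libraries, against 197546 and 157720.1 in LAB and 202291 to 260800.4 in the WY libraries. The 2 deletion libraries were nearly equal and those of LAB were not, and the fall was 2.54-fold (log2 -1.34, SE 0.22, adjusted p = 0.0024).

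LEU9, the minor alpha-isopropylmalate synthase gene, was not called in the deletion under the authors' scaling, and was called higher relative to LAB under the other scalings given below. It had 8586 and 7219 normalized counts in the deletion libraries and 7008 and 6324 in LAB, with 7129 to 7931 in the WY libraries, overlapping the deletion (log2 0.24 relative to LAB, 95% interval -0.01 to 0.50, adjusted p = 0.12). LEU3, the transcription factor gene, had 3945 and 3455 normalized counts in the deletion libraries and 3889.5 and 3738 in LAB, with 3620.3 to 4493 in the WY libraries. These values overlapped throughout, and the 95% interval of the log2 change relative to LAB was -0.26 to 0.17. The genes without a call were those with lower counts: ILV6, ILV1, LEU9 and LEU3 were the 4 least abundant of the 10.

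**Figure D1:**
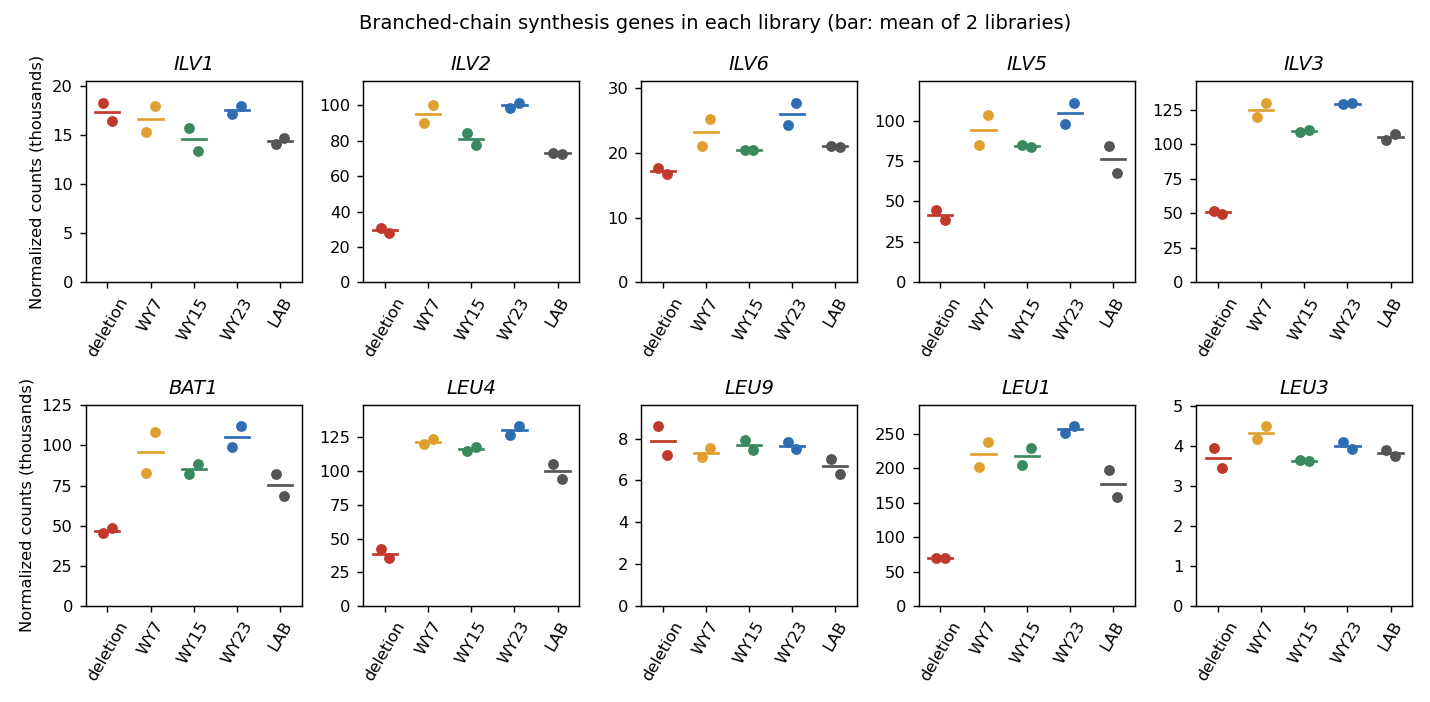
Normalized counts (linear axes that start at 0) of each of the 10 genes in each library (points), with the mean of the 2 libraries of a strain (bars), the deletion strain leftmost and LAB rightmost. Under the authors' scaling the deletion points lie below all 8 others for LEU4, LEU1, ILV2, ILV6, ILV5, ILV3 and BAT1, and overlap them for LEU9, LEU3 and ILV1. The share of all tested genes separated in this way was not counted. Quantile normalization turns the log2 change relative to LAB positive for LEU1, ILV6, ILV5, ILV3 and BAT1.

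The same genes were low against each MED15 allele. Under the authors' scaling, 7 of 10 genes fell relative to WY7 (20.6% of all tested genes were called lower), 6 relative to WY15 (17.5%) and 7 relative to WY23 (19.5%), and 0 rose (22.1%, 18.7% and 21.8% of all tested genes were called higher); under quantile normalization 0 fell in each, and 5, 3 and 4 rose. The shares of all tested genes called under quantile normalization were 20.9% lower and 21.4% higher relative to WY7, 19.4% and 18.9% relative to WY15, and 20.1% and 20.0% relative to WY23. ILV6 was the gene added to the 6 in the comparisons with WY7 and WY23. These comparisons share the deletion libraries. Relative to the mean of the 4 MED15 strains, 7 genes fell and 0 rose (24.3% of all tested genes were called lower and 25.6% higher), against 0 and 6 under quantile normalization (24.9% and 25.6%). The falls were 3.10-fold for LEU1 (log2 -1.63, SE 0.17, adjusted p = 0.00017), 3.01-fold for LEU4 (log2 -1.59, SE 0.14, adjusted p = 6.3e-05), 2.94-fold for ILV2 (log2 -1.56, SE 0.12, adjusted p = 3.8e-05), 2.30-fold for ILV3, 2.14-fold for ILV5, 1.91-fold for BAT1 and 1.31-fold for ILV6 (log2 -0.39, SE 0.10, adjusted p = 0.013). LEU9, LEU3 and ILV1 stayed without a call there too, with log2 changes of 0.10, -0.09 and 0.14. Without LAB replicate 1 and WY15 replicate 2 the count was 5 relative to LAB and 7 relative to the mean (20.3% and 29.7% of all tested genes called lower).

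The size of these changes, and for several genes the direction, depends on how the libraries are set on one scale. Which scaling follows RNA per cell cannot be settled from these values. Abundant genes as a class were low in the deletion. The normalized counts summed to 20875318 and 20759266 in the deletion libraries, against 25924796 to 29515961 in the others. Of 469 tested genes with a mean of at least 10000 normalized counts, 8 of them from the pathway, 49.7% were called lower and 3.84% higher relative to LAB, with a median log2 change of -0.55. The 6 genes that fell relative to LAB are all in this class, as are ILV6 and ILV1; the part of this shift in the result was not tested. With every library set to the same sum, which moves the median of all genes to 0.36, LEU4 (log2 -1.01), LEU1 (-0.98), ILV2 (-0.95), ILV3 (-0.69) and ILV5 (-0.50) were still called lower, BAT1 was not (-0.32, adjusted p = 0.17), and ILV1 (0.63), LEU9 (0.60) and LEU3 (0.31) were called higher, with 7.01% of all tested genes called lower and 47.3% higher. Those 3 are at 0.27, 0.24 and -0.05 under the authors' scaling, whose median over all genes is 0.00. With equal sums, 6, 6, 6 and 6 of the 10 genes were lower relative to WY7, WY15, WY23 and the mean of the MED15 strains (7.24%, 6.13%, 6.38% and 8.19% of all tested genes), and 2, 3, 3 and 3 higher (59.0%, 43.9%, 56.5% and 60.6%).

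Quantile normalization gives all libraries one distribution of values and so compares each gene with others of its rank. It left ILV2 at a log2 change of -0.11 and LEU4 at -0.08 relative to LAB, neither called, and LEU1 at 0.21 (adjusted p = 0.45). ILV1 (0.85), BAT1 (0.81), ILV3 (0.56), ILV5 (0.56) and LEU9 (0.49) were called higher. The order of the genes was similar in its extremes: LEU4, LEU1 and ILV2 were among the lowest 4 and ILV1 the highest under all 3 scalings.

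**Figure D2:**
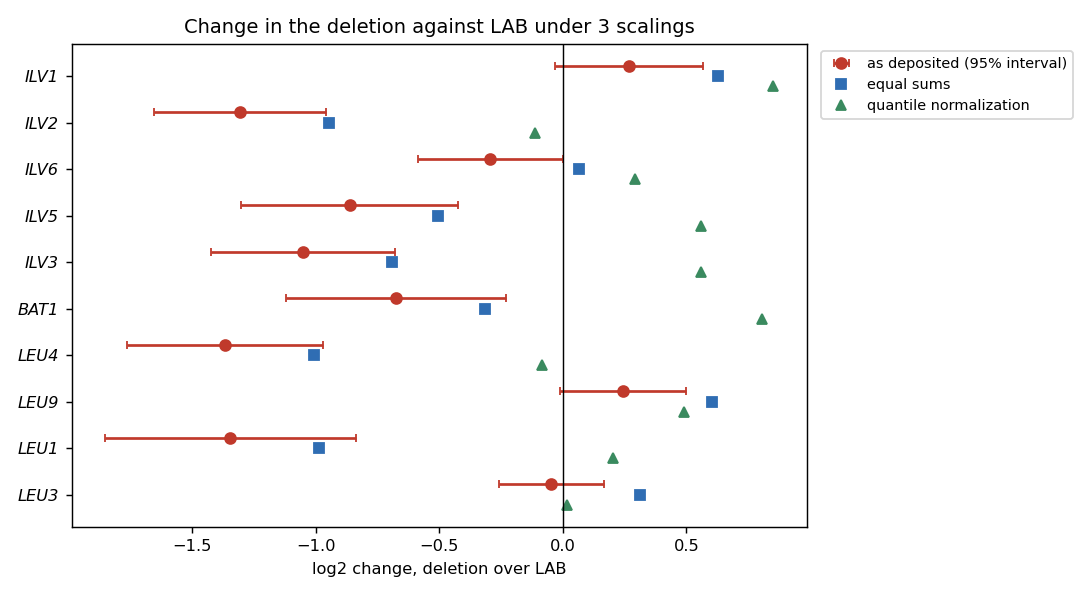
Log2 change of each gene in the deletion strain relative to LAB as deposited (circles, with bars for the 95% interval of the limma fit), with equal sums (squares) and under quantile normalization (triangles); the line at 0 marks no change. LEU4, LEU1 and ILV2 lie at -1.37, -1.34 and -1.31 as deposited, and the triangles of LEU1, ILV6, ILV5, ILV3 and BAT1 lie above 0, as do the squares of ILV6 and LEU3.

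Ratios of genes within a library do not depend on a scaling factor common to its genes, so they show which genes of the pathway changed relative to each other; under quantile normalization, which applies no common factor, LEU4 and LEU9 were at -0.08 and 0.49 and ILV2 and ILV6 at -0.11 and 0.29 relative to LAB. LEU4 exceeded LEU9 per length by 4.78-fold in both deletion libraries, against 14.1-fold to 17.3-fold in the MED15 strains (mean 15.5 ± 1.08, SD, n = 8). The log2 ratio fell by 1.69 in the deletion, with no overlap. An exact permutation test (two-sided) gave p = 0.0222, the smallest that 45 arrangements of the libraries allow, and 0.0333 adjusted over 3 ratios. For all 3 ratios this test shuffles single libraries, although they are 2 fermentations from each of 5 strains. Its p therefore does not measure the spread between strains, and only 1 strain lacked MED15. The paralogs share 79.4% of 1808 aligned coding bases, with no identical run longer than 41 bases against reads of 150 bases. How reads that match both were counted is not given in the sources used here, so the split between them carries that uncertainty.

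The subunits of acetolactate synthase also moved apart. ILV6 RNA per length was 1.27 and 1.32 times that of ILV2 in the deletion libraries, against 0.517 to 0.641 times in the MED15 strains (mean 0.579 ± 0.0466, SD, n = 8). The log2 ratio was higher by 1.16 in the deletion, again with no overlap (exact permutation test, two-sided, p = 0.0222; 0.0333 adjusted over 3 ratios), so the regulatory subunit had the higher level per length in the deletion and the catalytic subunit in every MED15 library. The aminotransferase ratios overlapped. BAT1 per length was 6.53 and 9.48 times BAT2, the cytosolic paralog, in the deletion libraries, against 6.42 to 13.4 times in the MED15 strains (log2 difference -0.19, exact permutation test, two-sided, p = 0.6).

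**Figure D3:**
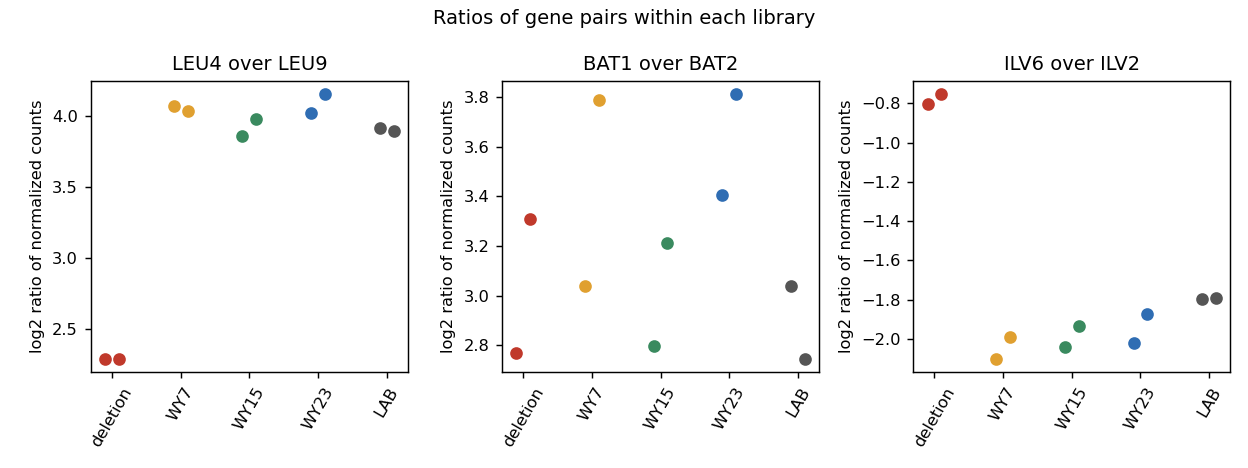
Log2 ratio of normalized counts within each library (points) for LEU4 over LEU9, BAT1 over BAT2 and ILV6 over ILV2, each on its own axis, the deletion libraries left of those of the MED15 strains. The deletion points lie outside the range of the other 8 for LEU4 over LEU9 and for ILV6 over ILV2, with mean differences of -1.69 and 1.16, and inside it for BAT1 over BAT2.

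The order of the genes changed at the top. Per kilobase of coding sequence, the deletion strain had BAT1 highest (39623 ± 1794 normalized counts per kb, SD, n = 2), then ILV5 (35069.5 ± 3530), LEU1 (29701 ± 238) and ILV3 (28887 ± 895). LEU1 and ILV3 differed by less than the SD of ILV3. In LAB, LEU1 was highest at 75912 per kb, ahead of ILV5 at 64009, BAT1 at 63558 and ILV3 at 59868, with libraries that overlapped between neighbours in this order, and LEU1 had the highest mean in each of the other MED15 strains too. LEU4 came next in both the deletion (20831 per kb) and LAB (53575 per kb), while ILV6 (18467) stood above ILV2 (14284) in the deletion and below it in LAB (22615 against 35306). ILV1, LEU9 and LEU3 kept the last 3 places in both, at 10049, 4354 and 1390 per kb in the deletion and 8329, 3673 and 1433 per kb in LAB. Together the 10 genes took 1.60% and 1.51% of the reads in the deletion libraries, against 2.62% and 2.91% (WY7), 2.69% and 2.90% (WY15), 3.07% and 3.10% (WY23), and 2.66% and 2.24% (LAB).

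Genes with and without the Leu3 motif fell. The 4 genes with the Leu3 motif all fell relative to LAB under the authors' scaling, and so did LEU4 and ILV3, which lack those letters in the 500 bases; LEU1, ILV5, BAT1 and ILV3 turn positive under quantile normalization. Of the 14 tested genes with the motif other than MED15 itself, 9 fell and 2 rose relative to LAB (7 and 5 with equal sums, 3 and 5 under quantile normalization). The 9 that fell include the 4 pathway genes already given. The 2 that rose under the authors' scaling were ATP5 (log2 0.65, limma adjusted p = 0.0013) and FSF1 (0.73, adjusted p = 0.0048). Over all tested genes the shares called lower and higher were 17.7% and 18.9% under the authors' scaling, 7.01% and 47.3% with equal sums, and 19.0% and 20.1% under quantile normalization. BAP2, which encodes a permease for branched-chain amino acids, was among the genes with the motif that fell. It had 21043 and 19249 normalized counts in the deletion libraries, against 42010.7 and 52402 in LAB, and its fall (log2 -1.22, SE 0.16, adjusted p = 0.00089) kept its call but shrank under the other scalings, to -0.86 with equal sums and -0.44 under quantile normalization (adjusted p = 0.040). GDH1, the glutamate dehydrogenase that supplies amino groups, also has the motif and had 32378 and 32104 in the deletion libraries, against 63628 and 55151 in LAB (log2 -0.88, SE 0.17, adjusted p = 0.0046), but it turned to 0.34 under quantile normalization. The Gcn4 motif was present in genes that fell and in the 4 that were not called.

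Other genes around the pathway moved in several directions. Of 6 tested genes of the same pathway or its transport, 3 fell relative to LAB and 0 rose. Over all tested genes, 17.7% were called lower and 18.9% higher. The 3 were BAT2 (log2 -0.82, adjusted p = 0.011), LEU5 (-1.15, adjusted p = 0.00078), a mitochondrial carrier needed for coenzyme A, and GDH1, which turns positive under quantile normalization. BAT2 had 6647 and 4881 normalized counts in the deletion libraries, against 9969 and 10176 in LAB, and lost its call with equal sums (log2 -0.46, adjusted p = 0.072). OAC1, the mitochondrial carrier that exports alpha-isopropylmalate (log2 -0.13, adjusted p = 0.65), CHA1, the catabolic serine and threonine deaminase (-0.32, adjusted p = 0.47), and ECM31, which draws on the valine precursor for pantothenate (0.19, adjusted p = 0.21), did not pass relative to LAB; ECM31 was called higher with equal sums (0.55, adjusted p = 0.0088). OAC1 was called lower relative to WY15 (log2 -0.72, adjusted p = 0.031), to WY23 (-1.09, adjusted p = 0.0047) and to the mean of the MED15 strains (-0.59, adjusted p = 0.020), under quantile normalization it was called in none of them, and relative to the mean it turned to 0.069. Of the 5 genes that make threonine, the substrate of Ilv1, limma called 0 relative to LAB. HOM2 had an unadjusted limma p under 0.05 there (log2 -0.38, adjusted p = 0.070). Of the 5, edgeR called 0 and DESeq2 1. With equal sums 3 were called higher, against 47.3% of all tested genes. Under quantile normalization 3 were called higher, against 20.1% of all tested genes. Relative to the mean of the MED15 strains, HOM2, aspartate semialdehyde dehydrogenase, was called lower (log2 -0.60, adjusted p = 0.0030) and HOM6, homoserine dehydrogenase, higher (0.28, adjusted p = 0.012), but HOM2 turned to 0.32 under quantile normalization. HOM2 was also called lower relative to WY7 and WY23, HOM3 relative to WY23 (adjusted p = 0.036), and HOM6 higher relative to WY15 and WY23. The HOM6 calls held under both other scalings. HOM3 relative to WY23 lost its call with equal sums (log2 -0.43, limma adjusted p = 0.21) and under quantile normalization (-0.27, adjusted p = 0.49). HOM2 kept its call with equal sums relative to WY23 but not WY7, and under quantile normalization turned to 0.11 and 0.26 in that order.

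GCN4 itself was at 35289 and 35088 normalized counts in the deletion libraries and 34542 and 41254 in LAB, with no call (log2 -0.10, adjusted p = 0.63; 1.07 and called under quantile normalization). The 3 permease genes split. BAP2 fell as given above, while BAP3 rose relative to LAB (log2 1.14, adjusted p = 0.0078). BAP3 had 12127 to 12257 normalized counts in the deletion libraries and 2715 to 10475 in the MED15 strains, and was not called relative to WY7. TAT1, a permease for valine, leucine, isoleucine and tyrosine, rose 8.17-fold relative to LAB (log2 3.03, adjusted p = 3.3e-05). Its locus overlaps a noncoding RNA in the annotation. TAT1 had 9559 and 9701 normalized counts in the deletion libraries, against 1060.4 and 1308 in LAB. Low-oxygen genes, whose level varied between replicates of LAB and WY15, summed to 15583 and 18594 normalized counts in the deletion libraries and 23192 to 39259 in the MED15 strains. That separation is carried by COX5B (7048 and 8343 in the deletion libraries, against 16429 to 21937): without it the sums were 8535 and 10251 in the deletion libraries, inside the 4624 to 19949 of the MED15 strains. Of the 8, 2 rose (AAC3 and DAN4) and 1 fell (COX5B) relative to LAB. In that comparison 18.9% of all tested genes were called higher and 17.7% lower. The part of the low-oxygen genes in the changes of the pathway was not tested, beyond the counts without the 2 libraries given above.

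Between the MED15 alleles, no gene of the 10 was called by limma in WY7, WY15 or WY23 relative to LAB, in the mean of the 3, or in the test for any difference among the 4 alleles, and limma called 0.0% of all tested genes in each. At an unadjusted limma p under 0.05 there were 1, 0, 5, 1 and 0 of the 10 in these comparisons. The 5 in WY23 became 1 with equal sums, 0 under quantile normalization and 2 with a block for replicate number. At the same cut edgeR had 7 and DESeq2 had 8 in WY23. The share of all tested genes under that cut was not counted, so these counts have no background. edgeR called 0 of the 10 in each, and 0.0% of all tested genes. DESeq2 called 4 higher in WY23 (ILV2, ILV3, LEU1 and LEU4, adjusted p = 0.0022 to 0.041), where it called 3.04% of the 1479 genes it gave an adjusted p as higher. It called ILV2 in the mean of the WY alleles (adjusted p = 0.011; 1.16% of 774 genes called higher) and ILV2 and ILV3 in its test for any difference (adjusted p = 0.0021 and 0.043; 2.61% of 6064 genes called).

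The values themselves lay mostly above LAB. All 10 genes had positive log2 changes in WY7 and in WY23 and 8 of 10 in WY15. Their medians were 0.27 in WY7, 0.15 in WY15 and 0.34 in WY23, against 0.01, 0.01 and 0.00 over all genes; these comparisons share the 2 LAB libraries. Under quantile normalization the medians were 0.05, 0.11 and 0.14 in the same order. The largest were LEU1 in WY23 (log2 0.54) and BAT1 in WY23 (0.49). ILV2 in WY23, with 98689.9 and 101595 normalized counts against 73215 and 72529 in LAB, had a log2 change of 0.46 with a 95% interval of 0.11 to 0.81 and a limma adjusted p of 0.53. In the mean of the WY alleles the changes ran from 0.06 for LEU3 to 0.38 for LEU1, and the genes with the larger positive values there, LEU1, BAT1, ILV2, ILV5 and LEU4, were among the 6 that were low in the deletion; both comparisons use the LAB libraries, so this is given as values only.

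**Figure D4:**
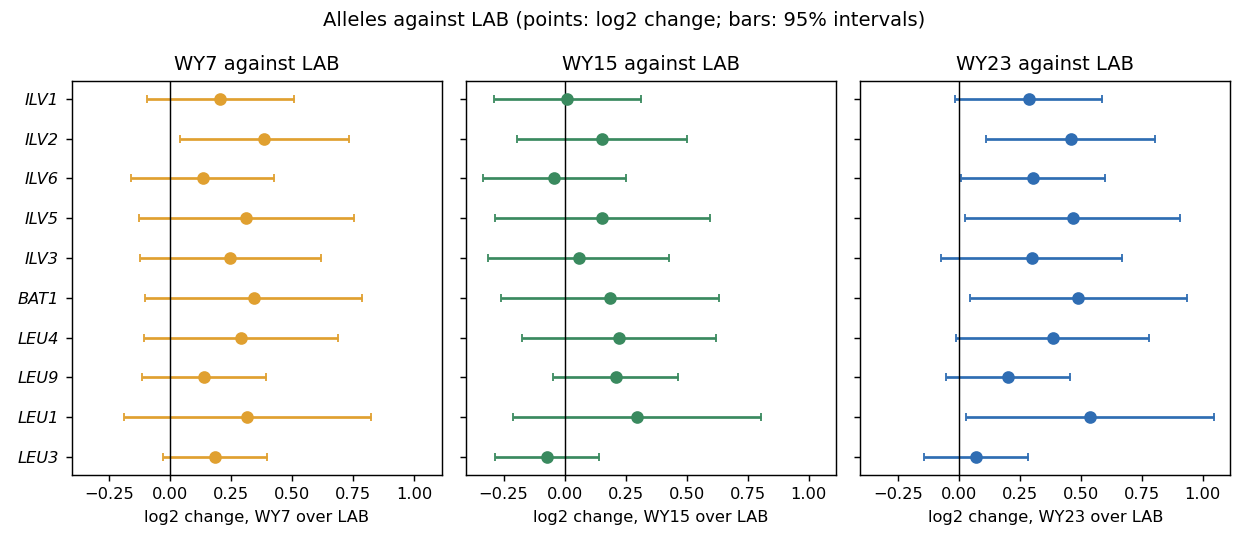
Log2 change of each gene in WY7, WY15 and WY23 relative to LAB (points, with bars for the 95% interval of the limma fit) under the authors' scaling; the line at 0 marks no change. Most points lie above 0, between -0.07 and 0.54, and limma called 0 of them; the medians shrink to 0.05, 0.11 and 0.14 in WY7, WY15 and WY23 under quantile normalization.

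Some of these genes were close to each other in their pattern over the 10 libraries. Likeness was measured as the root mean square difference of log2 values after each gene was centred on its own mean, over 10 libraries and among 6064 other genes, with smaller values meaning more alike. BAT1 was the one gene of the 10 whose nearest gene was another of them, ILV5, at 0.102. LEU4 lay nearest to THI73 (0.0792) with ILV2 in place 2, LEU1 to ATG41 (0.0798) with LEU4 in place 2, ILV2 to PCL5 (0.0646) with LEU4 in place 3, ILV5 to MET13 (0.0717) with BAT1 in place 3, and ILV3 to MPC2 (0.0865) with ILV5 in place 13. For the 4 genes not called relative to LAB, the closest pathway gene was at place 150 for ILV1, 418 for LEU9, 643 for ILV6 and 827 for LEU3. It lay at 0.127, 0.127, 0.170 and 0.140 in that order, against 0.125 for ILV3. A place far down the list therefore did not always mean a much larger distance. The nearest genes of these 4 were SVL3 (0.0664), MRX7 (0.0635), YGR017W (0.0675) and DFP3 (0.0539). The smallest distances to a nearest gene, those of LEU3 and LEU9, belong to genes that varied little between libraries.

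The coding sequences lie on separate loci in R64, each as a single exon that overlaps no other annotated gene. In the order of the pathway they are ILV1 at chrV:328477-330207 (plus strand), ILV2 at chrXIII:484084-486147 (plus), ILV6 at chrIII:104619-105548 (minus), ILV5 at chrXII:838066-839253 (minus), ILV3 at chrX:464451-466208 (minus), BAT1 at chrVIII:517532-518713 (plus), LEU4 at chrXIV:424895-426754 (minus), LEU9 at chrXV:523027-524841 (plus), LEU1 at chrVII:476313-478652 (minus) and LEU3 at chrXII:1036093-1038753 (plus).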

How the data were processed

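RNA from 10 fermentations (2 for each of 5 strains, all mapped to groups by their labels) was analysed. Per the labels' protocols, polyA RNA was made into stranded libraries and sequenced as paired reads of 150 bases. Tools named in the submitters' processing notes are Bowtie2, DESeq2, featureCounts and Trim Galore, with the builds R64 and sacCer3; which versions and settings were used, and whether strand was, is not given in the sources used here. The deposited values are a count signal, read counts per gene divided by 1 size factor per library by the authors; 100% of values lay within 1e-06 of a whole number of reads. Per the labels, the 2 libraries of a strain are biological replicates, and p-values measure the spread between them.

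Values were tested as log2(value + 1) with limma 3.58.1 (R 4.3.3) in 1 fit of 5 strain means with a variance trend, for genes with a mean of at least 10 normalized counts (6065 of 6600), two-sided, with Benjamini-Hochberg adjustment over all of them; fold changes are on that scale. edgeR 4.0.16 and DESeq2 1.42.0 were run on the recovered whole reads. Ratios within a library were compared by exact permutation of single libraries, which takes no account of the strain they come from. The limma and edgeR scripts were tested on simulated data, and the DESeq2 script was not. Other pseudocounts, filters and scalings, each library left out and a replicate block were tried; 1 alternative, leaving out LAB replicate 1 and WY15 replicate 2 together, was chosen after seeing the data. Same-numbered libraries did not deviate together across all 5 strains, so the numbers were not taken as pairs. The 3 of 10 correlations above 0.1 were all among the deletion, WY7 and WY23 (0.41, 0.26 and 0.27). Upstream sequences and positions came from the R64 genome and its RefSeq annotation, in which 5917 gene IDs matched. The genes, the lists of other genes and the tests were chosen with earlier results of these data known; all 10 genes are named whatever their values, and other genes come from those lists, from the motif search or as the nearest in pattern.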

Additional observations from a re-analysis of the deposited data

How the results depend on the processing

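Across 29 results and 585 alternative values, 533 kept their direction and their side of the threshold or moved little, while 14 lost a call, 5 gained one, 22 moved and 11 reversed. The tally includes counts between the alleles, where limma called 0.0% of all tested genes, so many kept values say little about the main result. It also includes permutation tests without a deletion library, which have too few arrangements to pass, so calls lost there were fixed in advance. Scaling had the largest effect, and the cause was not tested. With equal sums, the genes higher in the deletion numbered 3 relative to LAB, 2 to WY7, 3 to WY15, 3 to WY23 and 3 to the mean of the MED15 strains, the median relative to LAB was -0.41, and LEU3 (0.31) and ILV6 (0.067) changed sign. Under quantile normalization the genes lower numbered 0 in all 5 comparisons, those higher 5, 5, 3, 4 and 6 in the same order, and the median was 0.39; LEU1 (0.21), LEU3 (0.017), ILV6 (0.29), ILV5 (0.56), ILV3 (0.56) and BAT1 (0.81) changed sign relative to LAB. DESeq2 called 4 genes in WY23, 1 in the mean of the WY alleles and 2 for any difference among the alleles, and ILV6 lower relative to LAB (adjusted p = 0.0497). Leaving out LAB replicate 1 and WY15 replicate 2 gave a median of -0.62.

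With 1 library left out at a time, the genes called lower numbered 4 to 6 relative to LAB (4 without deletion replicate 2 or without LAB replicate 1), 6 to 7 to WY7, 5 to 6 to WY15, 6 to 7 to WY23 and 6 to 7 to the mean, while 11.1% to 19.8%, 14.0% to 23.0%, 11.5% to 17.9%, 10.3% to 22.3% and 15.9% to 26.7% of all tested genes were called lower in the same fits (11.1% and 14.0% relative to LAB without deletion replicate 2 and without LAB replicate 1); the lone remaining library was assumed to vary like the other strains. The median ran from -0.92 to -0.62, the log2 ratio difference from -1.71 to -1.67 for LEU4 over LEU9, from -0.46 to 0.077 for BAT1 over BAT2 (0.077 without deletion replicate 1) and from 1.14 to 1.19 for ILV6 over ILV2. The log2 change of LEU3 ran from -0.14 to 0.049, positive without deletion replicate 2. BAT1 also lost its call with only the compared strains in the fit (adjusted p = 0.062). With the replicate block, 6, 7, 6, 7 and 7 genes were lower, as without it, against 16.3%, 19.1%, 16.2%, 18.1% and 23.1% of all tested genes; the within-strain differences of same-numbered libraries correlated at -0.50 to 0.41. No gene of the 10 had fewer than 3315 reads in a library.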
